A study of Mus musculus with 24 samples.

Results

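Toll-like receptors are innate immune receptors that bind molecules from microbes or from damaged cells, and CD14 is a surface protein that passes bacterial lipopolysaccharide to Toll-like receptor 4. Toll-like receptors 1, 2, 4, 5 and 6 act mainly at the cell surface, where they sense lipopolysaccharide, lipopeptides and flagellin, whereas receptors 7, 8, 9 and 13 act in endosomes, where they sense nucleic acids. Most of them signal through the adaptor MyD88 and IRAK kinases to NF-kB and interferon regulatory factors, and monocytes and neutrophils both use them to start inflammatory gene programmes. The 10 genes described here are the 9 receptor genes Tlr1, Tlr2, Tlr4, Tlr5, Tlr6, Tlr7, Tlr8, Tlr9 and Tlr13 together with Cd14. They were picked by gene symbol from the 23479 genes of the authors' table of normalized read counts, and all 10 were present and passed the filter on low values in each main fit.

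The table held 24 RNA-seq libraries in 8 groups of 3, from myeloid-derived suppressor cells (MDSCs), which are immature myeloid cells that accumulate in tumour-bearing hosts. All mice carried B16 melanoma tumours of more than 25 mm2. They were either labelled wild type (WT, C57BL/6) or IL-6 knockout (KO, strain B6.129S2-Il6tm1Kopf/J), and were either untreated or lymphodepleted with cyclophosphamide and fludarabine. Spleens of the lymphodepleted mice were taken 7 days after treatment. From the spleens of all mice, cells labelled monocytic (M-MDSC) or polymorphonuclear (PMN-MDSC) had been purified by flow sorting to more than 99%, per the labels. Each of the 4 combinations of genotype label and treatment therefore had 3 M-MDSC and 3 PMN-MDSC libraries. The labels do not give the animals' ages or say whether the M-MDSC and PMN-MDSC libraries of a number came from the same mouse, so p-values measure the spread between these libraries.

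Total reads were 7237462 to 11193088 in the M-MDSC libraries and 3249647 to 9999731 in the PMN-MDSC libraries. Summed monocyte marker genes reached 40252 to 62111 normalized counts in M-MDSCs but 2225 to 5811 in PMN-MDSCs, whereas summed neutrophil markers reached 2991 to 25283 and 95452 to 265976, respectively. The cell type labels therefore matched their markers in all 24 libraries. The targeted gene, Il6, went against the genotype label in its direction: the 12 KO-labelled libraries held 16.2 to 220 normalized counts of it and the 12 WT-labelled libraries 0 to 7.20. Reads outside the altered part of the gene would be counted too, so "KO" and "WT" below name the labels.

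Promoter sequences are shown for 5 members from both sides of the cell type contrast, since the main pattern in the data was a division of the family between M-MDSCs and PMN-MDSCs. RefSeq windows (GRCm38.p6) of 250 bases upstream of the start were matched by symbol for 7 of the 10 genes. Tlr1 and Tlr6 are neighbours on chromosome 5, on the same strand and 18467 bases apart, and lay on opposite sides of that division. Tlr5 had the largest ratio in favour of PMN-MDSCs, Tlr9 the largest in favour of M-MDSCs, and Tlr8 is shown because its window held motif matches. The windows are chr5:64933559-64933808 (minus strand), chr5:64960049-64960298 (minus strand), chr1:182954538-182954787 (plus strand), chr9:106222348-106222597 (plus strand) and chrX:167264330-167264579 (minus strand), written 5′ to 3′ with matched motifs in capitals.
Tlr1: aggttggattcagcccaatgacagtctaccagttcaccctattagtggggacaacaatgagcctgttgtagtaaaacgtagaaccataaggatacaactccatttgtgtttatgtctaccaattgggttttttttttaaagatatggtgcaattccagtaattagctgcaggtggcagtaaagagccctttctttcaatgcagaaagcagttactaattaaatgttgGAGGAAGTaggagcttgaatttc
Tlr6: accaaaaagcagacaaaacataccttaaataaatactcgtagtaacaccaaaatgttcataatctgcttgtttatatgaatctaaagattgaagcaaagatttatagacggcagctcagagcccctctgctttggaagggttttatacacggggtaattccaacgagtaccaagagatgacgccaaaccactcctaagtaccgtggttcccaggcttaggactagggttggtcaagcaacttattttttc
Tlr5: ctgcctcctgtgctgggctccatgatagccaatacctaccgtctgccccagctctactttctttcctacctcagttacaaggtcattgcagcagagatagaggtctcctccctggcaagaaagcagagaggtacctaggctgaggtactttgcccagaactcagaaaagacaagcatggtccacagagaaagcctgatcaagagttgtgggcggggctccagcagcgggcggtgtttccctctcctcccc
Tlr9: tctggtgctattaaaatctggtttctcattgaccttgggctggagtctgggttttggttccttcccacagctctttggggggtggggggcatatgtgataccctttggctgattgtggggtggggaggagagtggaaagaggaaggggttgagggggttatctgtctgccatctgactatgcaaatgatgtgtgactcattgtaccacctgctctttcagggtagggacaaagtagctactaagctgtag
Tlr8: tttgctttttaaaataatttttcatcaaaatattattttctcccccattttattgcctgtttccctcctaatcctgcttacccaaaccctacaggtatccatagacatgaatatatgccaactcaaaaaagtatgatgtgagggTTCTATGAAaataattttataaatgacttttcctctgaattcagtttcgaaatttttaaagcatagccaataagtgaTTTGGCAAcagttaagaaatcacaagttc

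Both strands of the 7 windows were searched for 6 motifs of factors known from myeloid cells. These were PU.1 (GAGGAAGT), C/EBP (TTGCNNAA), STAT (TTCNNNGAA), NF-kB (GGG, any 2 bases, TTTCC), the interferon response element (GAAA, any 2 bases, GAAA) and the ETS-IRF composite (GGAA, any 2 bases, GAAA). The capitals in the Tlr1 window are a PU.1 match 23 to 16 bases before the start, a motif held by 2.44% of the 32851 windows of this length in the table. The Tlr8 window held a STAT match 106 to 98 bases before the start and a C/EBP match, on the other strand, 29 to 22 bases before it. Those motifs occurred in 7.02% and 9.56% of all windows. The other 3 motifs occurred in 1.41%, 2.98% and 2.30% of all windows. None of the other 5 matched windows held any of the 6 motifs, which says only that these letters are not in these bases.

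Between the cell types, the 10 genes fell into 2 opposite sets. Cd14, Tlr2, Tlr4, Tlr5 and Tlr6 were higher in PMN-MDSCs, and Tlr1, Tlr7, Tlr8 and Tlr9 were higher in M-MDSCs, with Tlr13 at similar levels in both for 3 of the 4 combinations. In untreated WT mice 9 of the 10 differed between cell types (limma, adjusted p below 0.05), 4 higher and 5 lower in M-MDSCs. Of all genes tested in that comparison, 50.5% were called, 22.2% higher and 28.3% lower in M-MDSCs. The libraries of the 2 cell types did not overlap for 9 of the 10, against 66.4% of all genes. In lymphodepleted WT mice 8 of 10 were called against 39.3% of all genes, 4 in each direction against 19.4% higher and 19.9% lower. In untreated KO mice 9 of 10 were called against 43.8%, 4 higher against 20.3% and 5 lower against 23.6%. There edgeR and DESeq2 each called 8 of 10, against 5814 and 6146 of all 13457 genes. In lymphodepleted KO mice 8 of 10 were called against 47.4%, 2 higher against 23.8% and 6 lower against 23.6%. In bulk libraries, fewer cells that express a gene and less RNA of it per cell cannot be told apart.

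**Figure D1:**
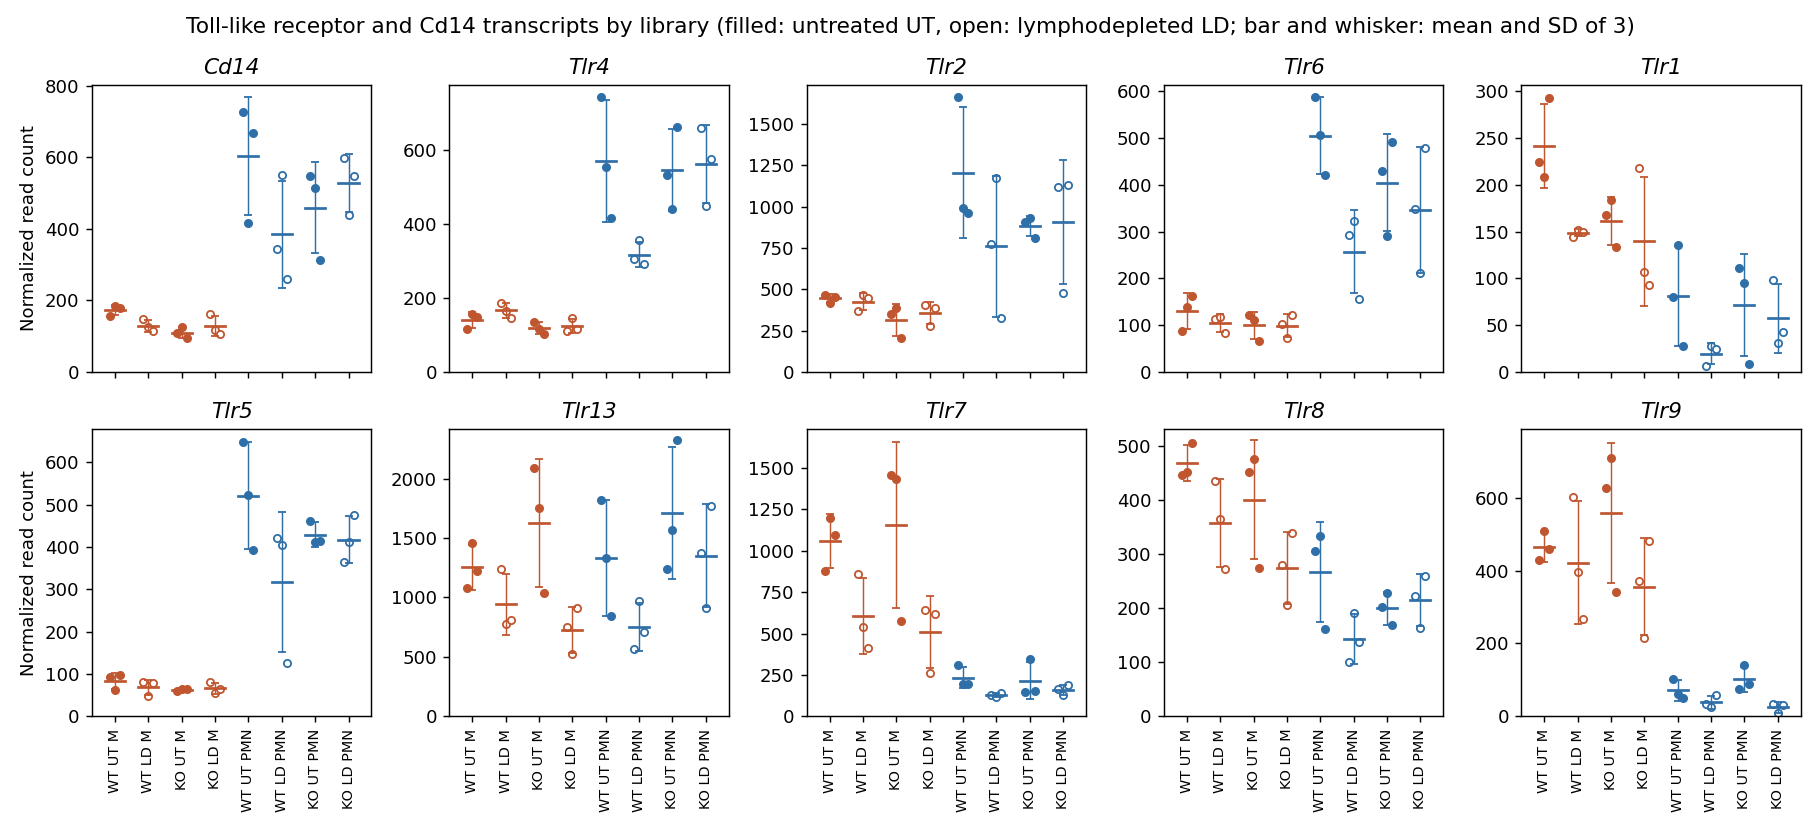
Normalized read count (linear axes from 0) of each gene in each library, by group of 3 libraries (WT or KO label; UT untreated, filled points; LD lymphodepleted, open points; M-MDSC red, PMN-MDSC blue); horizontal bars are means and whiskers SDs. Cd14, Tlr4, Tlr5 and Tlr6 are higher in the 4 PMN-MDSC groups, Tlr7 and Tlr9 in the 4 M-MDSC groups, and Tlr13 spans a similar range in both cell types.

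Cd14, the lipopolysaccharide co-receptor (chromosome 18, 36725067-36726798, GRCm38, minus strand), was 157.8, 184.8 and 178.3 normalized counts in untreated WT M-MDSCs and 726.6, 417.6 and 668.2 in untreated WT PMN-MDSCs. The lowest of the 12 PMN-MDSC libraries, at 261, was above the highest of the 12 M-MDSC libraries, at 185. The level was 3.38 times higher in PMN-MDSCs in untreated WT mice (log2 difference, M-MDSC minus PMN-MDSC, -1.76 ± 0.27 SE; limma adjusted p = 1.2e-05), and the log2 differences in the other combinations were -1.50, -2.01 and -2.04, all called. CD14 protein is used as a marker of monocytes in human blood, and here its mouse transcript was higher in PMN-MDSCs.

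Tlr4, the lipopolysaccharide receptor (chromosome 4, 66827584-66930284, plus strand), had 102 to 188 normalized counts in the 12 M-MDSC libraries (median 140) and 292 to 745 in the 12 PMN-MDSC libraries (median 492). No PMN-MDSC library overlapped an M-MDSC library. The log2 difference was -1.99 ± 0.23 (SE, adjusted p = 1.8e-07) in untreated WT mice, -2.19 in untreated KO mice and -2.17 in lymphodepleted KO mice. In lymphodepleted WT mice it was -0.93 ± 0.23 (adjusted p = 0.0023), beside a PMN-MDSC mean of 318 in that group and of 546 to 572 in the other 3 PMN-MDSC groups. The difference between the treated and untreated WT gaps was 1.06 ± 0.32, which did not pass the test over all genes (limma adjusted p = 0.12; DESeq2, 0.042).

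Tlr2 (chromosome 3, 83836272-83841767, minus strand) encodes the receptor for bacterial lipoproteins, which works as a dimer with either TLR1 or TLR6. It ranged over 203 to 469 normalized counts in M-MDSCs and over 327 to 1664 in PMN-MDSCs, and the ranges overlapped through the single low value of 327 in lymphodepleted WT PMN-MDSC library 3. Tlr2 was higher in PMN-MDSCs in 3 combinations (log2 differences -1.38, -1.53 and -1.26). In lymphodepleted WT mice the difference of -0.66 ± 0.36 was not called (adjusted p = 0.15).

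The partners of Tlr2 lay on opposite sides. Tlr6 (chromosome 5, 64952031-64960097) was 87.1, 139.9 and 163.2 normalized counts in untreated WT M-MDSCs and 587.2, 506.4 and 422.2 in untreated WT PMN-MDSCs. It was higher in PMN-MDSCs in all 4 combinations, by log2 1.24 to 2.02. Tlr1 (chromosome 5, 64924679-64933563) was 224.5, 208.2 and 292.5 normalized counts in the same M-MDSC group and 80.7, 135.6 and 28.3 in the same PMN-MDSC group. It was higher in M-MDSCs in 3 combinations, most in lymphodepleted WT mice (3.08 ± 0.70, adjusted p = 0.0012), where the PMN-MDSC libraries held 2, 30 and 27 reads of it. The difference in lymphodepleted KO mice was 1.35 ± 0.70 (adjusted p = 0.12).

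The Tlr1 calls in untreated mice were fragile. In untreated WT mice the difference was 1.80 ± 0.70 (adjusted p = 0.037) and was not called after quantile normalization (0.077) or without untreated WT PMN-MDSC library 3 (1.18, adjusted p = 0.20) or the 3 shallowest PMN-MDSC libraries (1.18, 0.13). In untreated KO mice it was 1.77 ± 0.70 (adjusted p = 0.045) with limma. It was not called without the filter on low values (0.064), after quantile normalization (1.52, 0.098), with edgeR (1.36, 0.069) or with DESeq2 (1.20, 0.095), and it was 0.64 (0.40) without untreated KO PMN-MDSC library 3, which had 9 reads of Tlr1. The Tlr1 and Tlr6 transcripts share 454 stretches of 50 bases, 13.6% of those in Tlr1 and 12.3% of those in Tlr6, so reads from there could have been split or dropped by the authors' counting. No other pair of the 10 genes shared any.

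Tlr5, the flagellin receptor (chromosome 1, 182954788-182976044, plus strand), had the largest ratio towards PMN-MDSCs. The untreated WT libraries held 93.4, 62.4 and 96.2 normalized counts in M-MDSCs and 648.4, 522.0 and 393.9 in PMN-MDSCs. It was 6.13 times higher in PMN-MDSCs there (log2 -2.62 ± 0.34, adjusted p = 1.2e-06), and -2.04 to -2.76 on the log2 scale in the other 3 combinations. Every PMN-MDSC library was above every M-MDSC library. The lowest PMN-MDSC value, 127, was again from lymphodepleted WT library 3, where the other libraries of the group had 421 and 404.

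**Figure D2:**
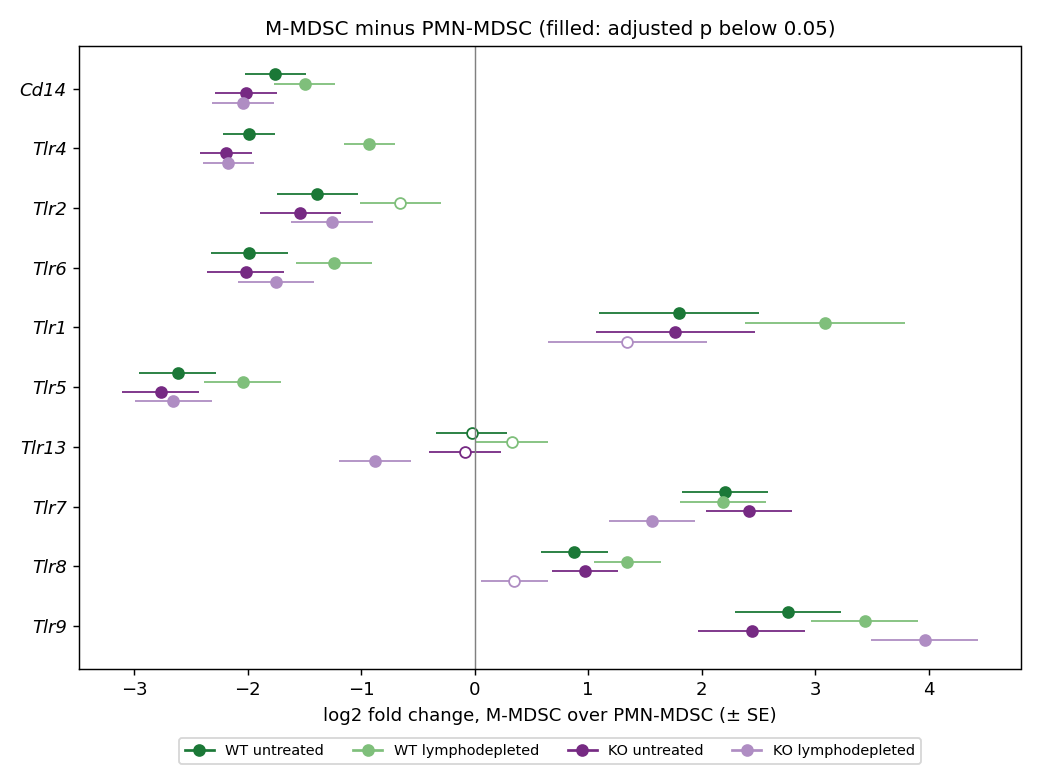
Log2 fold change, M-MDSC over PMN-MDSC, with its SE, for the 10 genes in each combination of genotype label and treatment (limma on log2(normalized count + 1); filled points have an adjusted p below 0.05). Cd14, Tlr4, Tlr2, Tlr6 and Tlr5 lie left of 0, Tlr1, Tlr7, Tlr8 and Tlr9 right of it, and Tlr13 is called only in lymphodepleted KO mice, at -0.88.

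Among the endosomal receptors, Tlr9 had the largest ratio towards M-MDSCs. Tlr9 (chromosome 9, 106222598-106226883, plus strand), the receptor for unmethylated CpG DNA, was 427.9, 509.6 and 458.6 normalized counts in untreated WT M-MDSCs and 102.8, 60.0 and 50.1 in PMN-MDSCs. The M-MDSC range of 214 to 708 lay above the PMN-MDSC range of 7.64 to 140. The log2 differences were 2.76 ± 0.47, 3.43, 2.44 and 3.96 in the order untreated WT, lymphodepleted WT, untreated KO and lymphodepleted KO, all called. B cells also express Tlr9, and the summed B cell markers had a median of 186 normalized counts in M-MDSCs (34.8 to 940) and 423 in PMN-MDSCs. They were 721 to 1549 in the untreated PMN-MDSC libraries and 34.9 to 125 in the lymphodepleted PMN-MDSC libraries. Summed plasmacytoid dendritic cell markers were 362 to 711 in the M-MDSC libraries and 87.1 to 223 in the PMN-MDSC libraries. The part of either kind of cell in the Tlr9 values was not tested.

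Tlr7 and Tlr8 are neighbouring genes for receptors of single-stranded RNA and its fragments, on the X chromosome (Tlr7 at 167304929-167330558 and Tlr8 at 167242696-167264329, both on the minus strand). Tlr7 ranged over 258 to 1457 normalized counts in M-MDSCs and over 113 to 345 in PMN-MDSCs, and the low M-MDSC extreme came from lymphodepleted KO library 2. It was higher in M-MDSCs in all 4 combinations, by log2 1.56 to 2.42 (adjusted p between 1.9e-05 and 0.0016). Tlr8 differed less, with 206 to 507 in M-MDSCs and 99.5 to 334 in PMN-MDSCs. Its differences were 0.88 ± 0.29, 1.35 and 0.97, called, and 0.35 ± 0.29 in lymphodepleted KO mice (adjusted p = 0.34). The untreated WT call of Tlr8 was lost without the 3 shallowest PMN-MDSC libraries (0.55, adjusted p = 0.11) and without untreated WT M-MDSC library 3 (0.82, 0.055) or PMN-MDSC library 3 (0.55, 0.14), and the untreated KO call without M-MDSC library 2 (0.83, 0.054).

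Tlr13, a receptor for bacterial ribosomal RNA that humans lack (chromosome X, 106143204-106160493, plus strand), did not divide by cell type. It ranged over 523 to 2092 normalized counts in M-MDSCs and 568 to 2328 in PMN-MDSCs. The log2 differences in untreated WT, lymphodepleted WT and untreated KO mice were -0.03, 0.33 and -0.09, and the 95% interval of the first was -0.68 to 0.63. In lymphodepleted KO mice Tlr13 was lower in M-MDSCs (-0.88 ± 0.32, adjusted p = 0.026), a call lost after quantile normalization (-0.45, 0.25) and without KO lymphodepleted M-MDSC library 2 (-0.66, 0.13), PMN-MDSC library 1 (-0.84, 0.067) or PMN-MDSC library 3 (-0.66, 0.14).

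Levels of different genes were compared per kilobase of exon. In all 4 M-MDSC groups Tlr13 ranked first and Tlr7 second among the 10, at 291 ± 44.4 and 259 ± 40.1 normalized counts per kilobase (SD, n = 3) in untreated WT M-MDSCs, whose ranges overlapped. Tlr5 ranked last there, at 17.5 ± 3.9. In the 4 PMN-MDSC groups Tlr2, Cd14 and Tlr13 held the first 3 ranks, at 400 ± 132, 349 ± 94.8 and 309 ± 114 in untreated WT PMN-MDSCs, again within each other's spread. Tlr1 and Tlr9 held the last ranks, at 24.4 ± 16 and 20.4 ± 8.1 in that group.

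**Figure D3:**
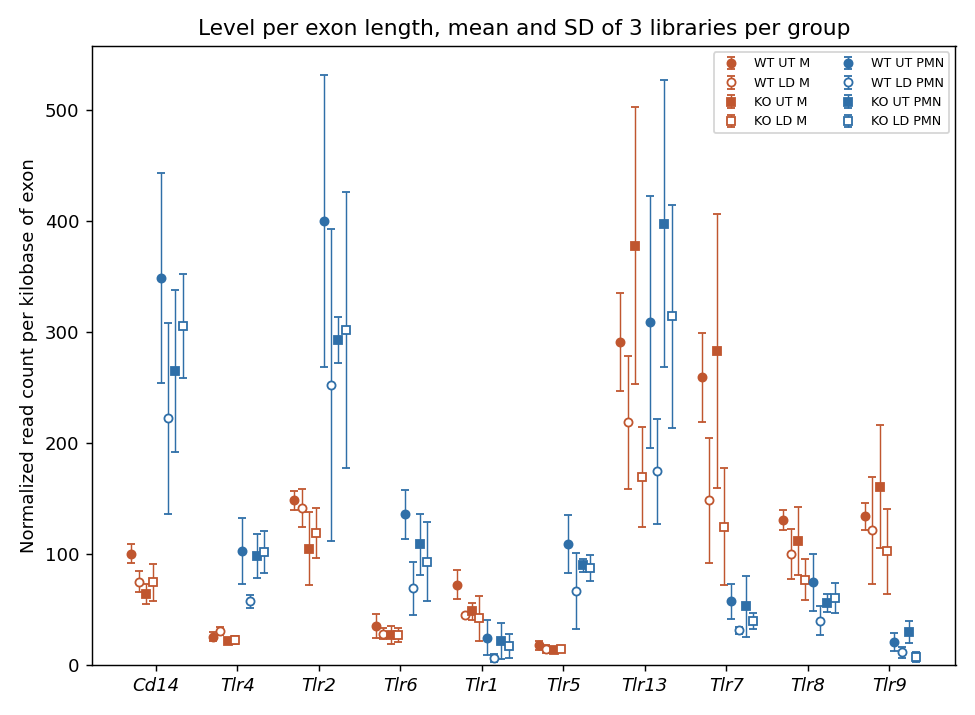
Normalized read count per kilobase of exon (linear axis from 0), mean and SD of the 3 libraries of each group (red M-MDSC, blue PMN-MDSC; circles WT, squares KO; filled untreated UT, open lymphodepleted LD). Tlr13 is near the top in both cell types, while Tlr2 and Cd14 are high in PMN-MDSCs and Tlr7 in M-MDSCs.

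Over the 24 libraries the 2 sets separated into 2 blocks of correlated genes, given here as a description of libraries that share cell type and treatment. Cd14, Tlr2, Tlr4, Tlr5 and Tlr6 had pairwise Pearson correlations of 0.85 to 0.95 on the log2 scale, and Tlr1, Tlr7, Tlr8 and Tlr9 had 0.73 to 0.92. Within the 12 M-MDSC libraries these ranges were -0.11 to 0.61 and 0.31 to 0.92, respectively. Within the 12 PMN-MDSC libraries they were 0.47 to 0.84 and 0.28 to 0.81. Likeness to other genes was ranked over all 24 libraries among 8281 genes. The closest genes to Tlr5 were Plk3 (r = 0.985) and the granulocyte colony-stimulating factor receptor gene Csf3r (0.982). Those closest to Tlr4 were the chemokine receptor gene Ccr1 (0.974) and Kctd12 (0.970), to Tlr6 Rassf3 and the clathrin assembly gene Picalm (both 0.973), to Cd14 Gyk and Son (both 0.967), and to Tlr2 Nup98 (0.951) and the ferritin heavy chain gene Fth1 (0.950). On the other side, Tlr9 was closest to Ifi203 (0.964) and Cd48 (0.961), and Tlr7 to Bmpr2 (0.955) and the cytokine gene Tgfb1 (0.954). Tlr8 was closest to Aim1 (0.909) and Tgfb1 (0.890), and Tlr1 to Zfyve28 (0.897) and the kinase gene Irak1 (0.890). Tlr13 had the weakest top matches, the kinase gene Csk (0.864) and the signalling adaptor gene Tab2 (0.835).

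The other genes of the pathway were read from 7 lists with 75 genes. Of the 68 tested between cell types in untreated WT mice, 13 were higher and 27 lower in M-MDSCs, 58.8% against 50.5% of all genes, with a median log2 difference of -0.56 against -0.08 for all genes. By role, 3 of 9 accessory proteins were higher and 1 lower, 4 of 17 adaptors and kinases were higher and 7 lower, 1 of 11 inhibitors was higher and 8 lower, 3 of 12 transcription factors were higher and 3 lower, and 1 of 12 induced genes was higher and 6 lower. Quantile normalization moved the split of all called genes in this comparison from 2994 higher and 3807 lower to 3278 and 2918, while no called difference of the 10 genes changed sign under any alternative run.

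Within those lists, Ly86, which encodes the MD-1 partner of the receptor CD180, was higher in M-MDSCs (log2 3.29 ± 0.37, adjusted p = 1.7e-07), as was Cd180 itself (2.28 ± 0.47). Hsp90b1, a chaperone that folds Toll-like receptors, was 1.42 ± 0.25 higher. Among adaptors, Tirap, which recruits MyD88 to TLR2 and TLR4, was higher in PMN-MDSCs (-1.71 ± 0.20), and Ticam2, the bridging adaptor for TLR4 in endosomes, was higher in M-MDSCs (3.67 ± 0.52). Irf5 (1.74 ± 0.22) and Irf8 (2.86 ± 0.40), transcription factors of monocytes and dendritic cells, were higher in M-MDSCs. The inhibitor Irak3 (-1.04 ± 0.15) and the induced genes Ptgs2 (-6.61 ± 0.53), Il1b (-7.48 ± 0.67) and Cxcl2 (-4.90 ± 0.48) were higher in PMN-MDSCs. S100a8 (-6.66 ± 0.56) and S100a9 (-6.78 ± 0.59), which encode proteins that can act on TLR4, were higher in PMN-MDSCs too, and are abundant neutrophil transcripts.

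After lymphodepletion limma called 1 of the 10 genes in WT PMN-MDSCs (10.9% of all genes) and 1 in KO M-MDSCs (11.6%). It called 0 in WT M-MDSCs (18.3%) and 0 in KO PMN-MDSCs (0.224%). In WT PMN-MDSCs all 10 were lower after treatment, with log2 changes of -1.96 to -0.68 and a median of -0.86, against a median of -0.20 for all genes tested. Only Tlr4 was called, 1 of 10, where 10.9% of all genes were called and 6.73% were called lower, and 8 of the 10 had an unadjusted p below 0.05, against 29.1% of all genes. The 2 groups did not overlap for 4 of the 10 (Tlr1, Tlr4, Tlr6 and Tlr7), against 32.9% of all genes. The median of all genes was -0.0046 under edgeR's scaling and called genes split into 537 higher and 873 lower with limma but 629 and 391 with edgeR. All 10 members were below 0 in each alternative run, with medians of -1.07 to -0.61.

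In WT PMN-MDSCs Tlr4 was 745.0, 554.4 and 415.7 normalized counts untreated and 305.0, 356.1 and 292.1 after lymphodepletion, with no overlap. The log2 change was -0.81 ± 0.25 (limma adjusted p = 0.049). The call was lost without the filter on low values (0.068), after quantile normalization (0.062), with edgeR (-0.74, 0.073), without the 3 shallowest PMN-MDSC libraries (-0.99, 0.053) and in each of the 6 fits without 1 library of either group (-1.02 to -0.60, adjusted p 0.051 to 0.20). Tlr6 went from 587.2, 506.4 and 422.2 to 292.1, 323.7 and 156.1 (-1.03 ± 0.33, adjusted p = 0.059). Tlr1 had 80.7, 135.6 and 28.3 untreated and 6.4, 27.8 and 24.8 after treatment (-1.96 ± 0.90, adjusted p = 0.16).

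Markers of dividing and progenitor cells differed beside this shift. In the WT PMN-MDSC groups the summed dividing-cell genes were 987 to 1160 normalized counts untreated and 6622 to 24169 after treatment, and the summed granulocyte-monocyte progenitor genes 6.53 to 28.8 and 411 to 1332. Lymphodepleted WT PMN-MDSC library 3 stood highest for both and for neutrophil markers (265976). That library was lowest of its group for Tlr2, Tlr4, Tlr5, Tlr6 and Cd14. The neutrophil markers did not move together after treatment: Camp (3.22), Ngp (3.17), Mmp8 (1.53) and Retnlg (0.82) were called higher, and Csf3r (-1.72) and Cxcr2 (-1.06) lower. The part of dividing, progenitor or neutrophil cells in the result was not tested. In the pathway lists of this comparison 1 of 65 genes rose and 15 fell, 24.6% against 10.9% of all genes, with the split of all called genes depending on the scaling as above. Lbp, which encodes the lipopolysaccharide-binding protein, rose (2.98 ± 0.51), and Irf5 (-1.20 ± 0.27), Irak4 (-0.86 ± 0.23), Tnfaip3 (-1.37 ± 0.33) and Unc93b1 (-0.89 ± 0.22), whose protein carries endosomal Toll-like receptors to their compartment, were among those that fell.

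In KO PMN-MDSCs 0 of the 10 genes were called after lymphodepletion with limma (0.224% of all genes), 1 at an unadjusted p below 0.05 (10.2% of all genes). Of the 10, edgeR called 0 and DESeq2 called 1, against 24 and 236 of all 12971 genes. The median log2 change was -0.05, and that of all genes was -0.07. Tlr9 stood apart, at 74.2, 140.0 and 89.1 normalized counts untreated and 34.7, 7.6 and 32.0 after treatment, with no overlap (-2.18 ± 0.61, adjusted p = 0.18); it was the gene called by DESeq2. Of the 6 B cell markers 2 fell, and their sum was 721 to 1549 untreated and 46.7 to 125 treated; their part in this value was not tested. The difference between the KO and WT changes, tested as an interaction, was called for 0 of 10 (limma, 0% of all genes; 1 unadjusted against 8.54% of all genes, 0 with edgeR and 0 with DESeq2), with 9 of the 10 above 0 and a median of 0.79 against 0.10 for all genes.

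**Figure D4:**
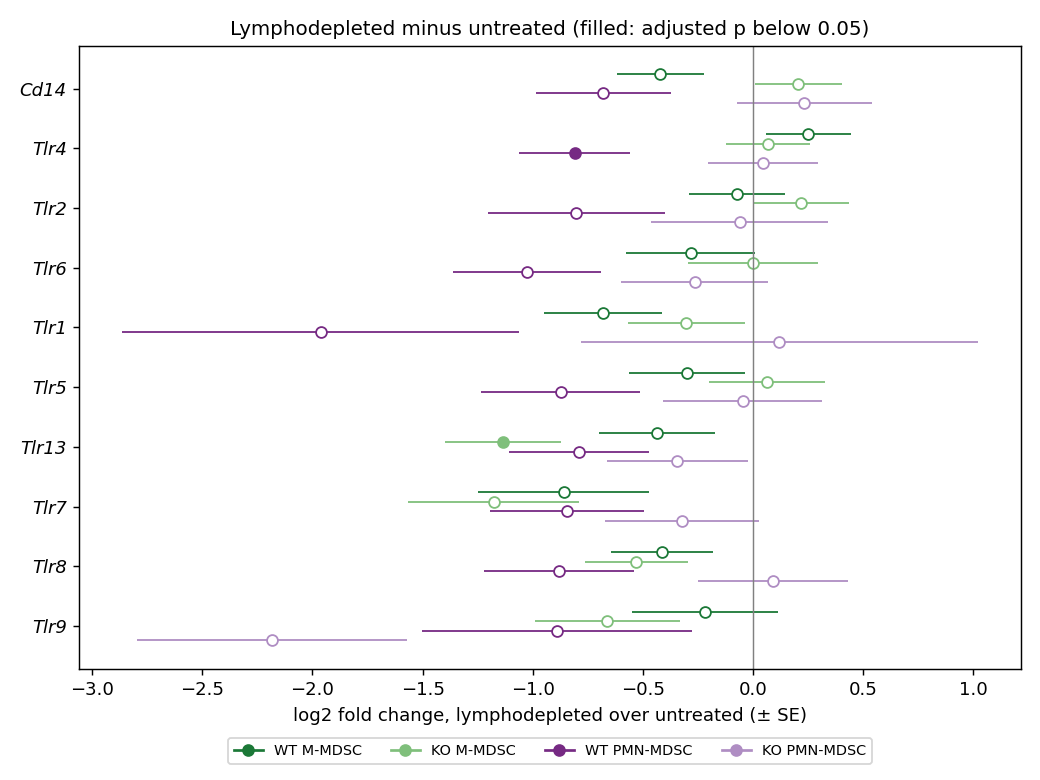
Log2 fold change, lymphodepleted over untreated, with its SE, for the 10 genes in the 4 combinations of genotype label and cell type (limma; filled points have an adjusted p below 0.05). All 10 WT PMN-MDSC points lie left of 0; the filled ones are Tlr4 in WT PMN-MDSCs at -0.81 and Tlr13 in KO M-MDSCs at -1.14.

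In KO M-MDSCs the 4 endosomal receptors had the lowest log2 changes of the 10 after treatment. Tlr13 fell in KO M-MDSCs, from 2092, 1750 and 1037 normalized counts to 750, 523 and 910, with no overlap (-1.14 ± 0.26, limma adjusted p = 0.013). It was the 1 called gene of 10 in that comparison, where 11.6% of all genes were called and 5.52% called lower. Of the 10, edgeR called 1 and DESeq2 called 2, against 1298 and 1792 of all 11570 genes. The call was lost without untreated KO library 1 (-0.92, adjusted p = 0.078), untreated KO library 2 (-1.05, 0.054) or lymphodepleted KO library 2 (-0.92, 0.074). In the same comparison all 6 B cell markers and all 5 natural killer cell markers fell, 3 of 5 non-classical monocyte markers fell and all 5 dividing-cell genes rose. The summed B cell markers were 573 to 940 normalized counts untreated and 66.4 to 92.3 treated, and the natural killer cell sums 5184 to 8009 and 310 to 1051. Over the 12 M-MDSC libraries Tlr13 correlated with summed B cell markers at 0.79 and with non-classical monocyte markers at 0.88. The non-classical monocyte sum was not particular to M-MDSCs, at 8370 to 38161 normalized counts there and 7258 to 27034 in PMN-MDSCs. The part of other cells in the fall was not tested.

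Tlr7 in KO M-MDSCs went from 1457, 1435 and 574 to 644, 258 and 621 (-1.18 ± 0.39, adjusted p = 0.067), and the groups overlapped through untreated library 3. In WT M-MDSCs 0 of the 10 were called with limma, against 18.3% of all genes, 2 at an unadjusted p below 0.05 (32.9% of all genes), and 0 with edgeR and DESeq2. The groups did not overlap for 4 of the 10 (Tlr1, Tlr7, Tlr8 and Cd14), against 38.8% of all genes. The WT Tlr7 values were 880.1, 1201 and 1096 untreated and 861.4, 541.6 and 414.6 treated (-0.86 ± 0.39, adjusted p = 0.14). The interaction between label and treatment was called for 0 of the 10 in M-MDSCs (limma; 1 unadjusted against 12.2% of all genes, 0 with edgeR and DESeq2), against 0.00864% of all genes.

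The 4 endosomal receptors moved together across the M-MDSC libraries. Over the 12 M-MDSC libraries Tlr7, Tlr8, Tlr9 and Tlr13 had pairwise correlations of 0.82 to 0.94, as a description of libraries that share treatment. Untreated KO library 3 was lowest of its group for all 4, at 574 for Tlr7, 274 for Tlr8, 341 for Tlr9 and 1037 for Tlr13. That library held 6594 normalized counts of dividing-cell genes and 7681 of progenitor genes, against 632 and 1914, and 223 and 1278, in the other untreated KO libraries. The correlation of Tlr7 with the summed dividing-cell genes was -0.80 and with summed non-classical monocyte markers 0.92 (n = 12). The latter sum had a similar range in PMN-MDSCs. The part of dividing cells or non-classical monocytes in the Tlr7 values was not tested.

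**Figure D5:**
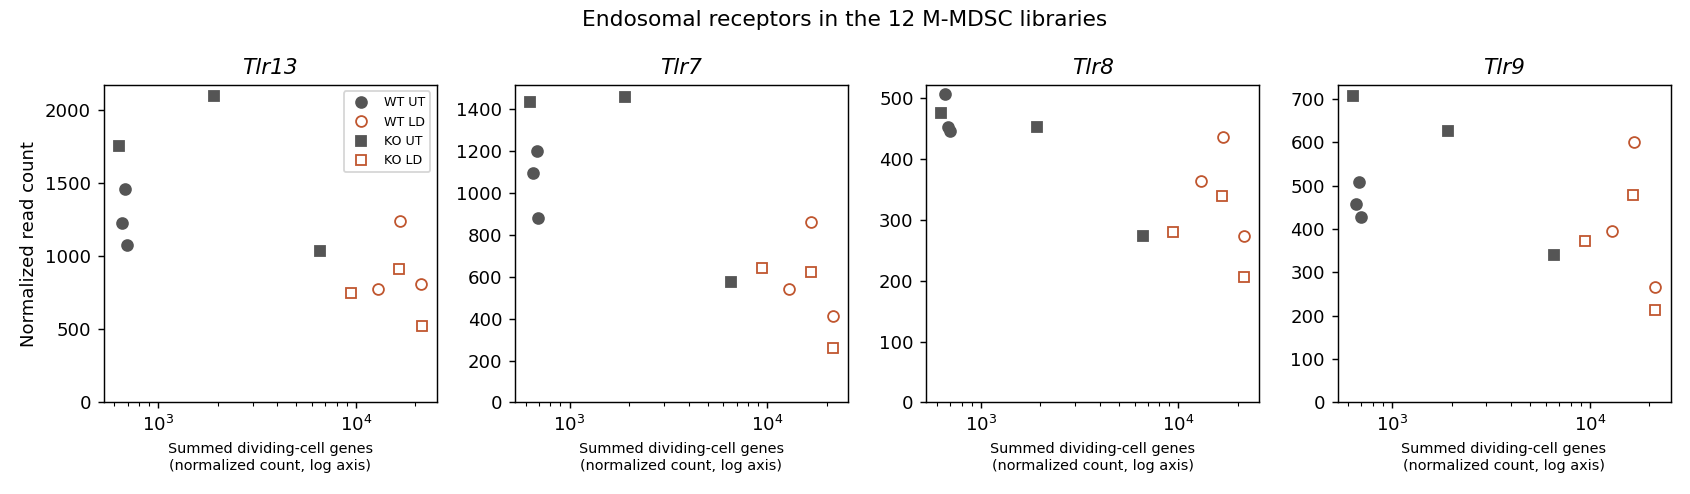
Normalized read count (linear axis from 0) of the 4 endosomal receptor genes in the 12 M-MDSC libraries against the summed normalized count of 5 dividing-cell genes (log axis); circles WT, squares KO, filled untreated, open lymphodepleted. The untreated KO library at 6594 on the horizontal axis is lowest of its group in each panel.

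Other genes of the pathway were read in the same M-MDSC comparisons. In WT M-MDSCs 4 of 65 listed genes rose and 11 fell, 23.1% against 18.3% of all genes. S100a8 (5.02 ± 0.60) and S100a9 (5.13 ± 0.64) had the largest changes, beside summed neutrophil markers of 3361 to 3705 untreated and 7464 to 25283 treated. The part of neutrophil RNA in those 2 values was not tested. The NF-kB inhibitors Nfkbia (-1.08 ± 0.17) and Tnfaip3 (-1.24 ± 0.21) and the NF-kB subunit gene Rel (-0.66 ± 0.13) fell. In KO M-MDSCs 4 rose and 4 fell, 12.3% against 11.6% of all genes, Tnfaip3 (-0.87 ± 0.21) among the latter, while in KO PMN-MDSCs 0 rose and 1 fell (Ccl5, -3.02 ± 0.57).

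With limma no member was called between the genotype labels. In untreated M-MDSCs 0 of 10 were called with limma between KO and WT, against 4.03% of all genes. At an unadjusted p below 0.05 there were 3 (22.2% of all genes). Of the 10, edgeR called 0 and DESeq2 called 1, against 499 and 1071 of all 11570 genes. Cd14 was nearest, with 157.8, 184.8 and 178.3 normalized counts in WT and 109.1, 126.8 and 95.2 in KO, which did not overlap (-0.66 ± 0.20, limma adjusted p = 0.076). Tlr1 and Tlr2 did not overlap there either, 3 of 10 against 33.9% of all genes. In lymphodepleted M-MDSCs 0 of 10 were called, against 0.207% of all genes (1 unadjusted against 9.34%, 0 with edgeR and DESeq2), and all 10 lay below 0 with a median of -0.25, but 5 of 10 without lymphodepleted KO library 2. In PMN-MDSCs 0 of 10 were called in untreated mice, against 0.00771% of all genes (0 unadjusted against 3.61%, 0 with edgeR and DESeq2), and 0 of 10 in lymphodepleted mice, against 0.0154% (2 unadjusted against 8.30%, 0 with edgeR and DESeq2). There 9 of the 10 were above 0, with a median of 0.54 against 0.04 for all genes, and 2 of 10, Tlr1 and Tlr4, did not overlap between the labels, against 10.2% of all genes.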

How the data were processed

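The authors deposited 1 table of normalized read counts (signal values: whole reads divided by 1 size factor per library), made with STAR 2.5.3a, HTSeq 0.6.1 and DESeq2 on mm10, per the submitters' processing notes. The libraries were made from 100 ng of total RNA with ribosomal RNA depleted, per the labels' protocols. The gene annotation, strand setting and treatment of reads with several matches: not given in the sources used here. Each library's smallest step gave back whole reads for 100% of values (tolerance 0.001 reads). Ribosomal Rn45s took 2.94 to 19.8% of reads.

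The main test was limma 3.58.1 (R 4.3.3) on log2(value + 1) with a trended prior and 1 mean per group. It was fitted to the 12 M-MDSC, the 12 PMN-MDSC or all 24 libraries, over genes with at least 10 normalized counts in at least 3 of them. P-values are two-sided and Benjamini-Hochberg adjusted over all genes, and a gene is called below 0.05. Fold changes are on the log2(value + 1) scale. Alternatives were a pseudocount of 5, no filter, quantile normalization, edgeR 4.0.16 and DESeq2 1.42.0 on the recovered reads, a replicate block and leaving out each library. Fits without the 3 shallowest PMN-MDSC libraries and with all 24 libraries together were added after seeing the data. The limma, edgeR and DESeq2 steps were run on counts simulated with the same spread setting for every gene. Those runs check the code and do not give error rates for these data.

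The members and gene lists were chosen with earlier results of these data known. All 10 members are named. From each pathway list the genes named are among the 3 called ones with the smallest adjusted p in a comparison, and likeness lists the 2 most correlated genes with a mean of at least 100 normalized counts in their highest group. Coordinates and exon lengths come from GENCODE M21 (GRCm38).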

Additional observations from a re-analysis of the deposited data

How the results depend on the processing

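Of 160 member results (10 genes in 16 comparisons), 36 were called with limma, 29 of which were called in every alternative run, and no result that was called in any setting changed sign. Low read counts limit Tlr1 and Tlr9 in PMN-MDSCs, where single libraries held as few as 2 and 9 reads. The 2 Tlr1 reads were in the shallowest PMN-MDSC library (3249647 total reads). The 9 Tlr9 reads were in the deepest (9999731).

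The number of members called in WT PMN-MDSCs after lymphodepletion was 1 with limma, against 1410 of all 12971 genes. It became 0 without the filter, with quantile normalization, with edgeR and without the 3 shallowest PMN-MDSC libraries. In 1 fit of all 24 libraries it was 4, against 3491 of all 13457 genes. Without 1 library it ranged from 0 to 2. After lymphodepletion DESeq2 called 2 in KO M-MDSCs, against 1792 of all 11570 genes (limma without 1 library, 0 to 3). In KO PMN-MDSCs it called 1, against 236 of 12971 (limma in the fit of all 24 libraries, 1 against 325 of 13457). Between labels in untreated M-MDSCs it called 1, against 1071 of 11570. For the difference of the cell type gaps between treatments in WT mice it called 1, against 342 of 13457. Between cell types the counts without 1 library ranged from 7 to 9 (untreated WT), 8 to 9 (lymphodepleted WT), 7 to 9 (untreated KO) and 7 to 8 (lymphodepleted KO), and in all other comparisons they stayed at 0. The cause of these changes was not tested.

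In 0 of 28 pairs of groups were all 3 same-number correlations above 0.1 (range over all -0.18 to 0.23). These pairs include groups of different label or treatment, which cannot share a mouse. The count therefore does not decide whether M-MDSC and PMN-MDSC libraries of a number came from the same mouse. With the replicate number as a block, members called in WT PMN-MDSCs after lymphodepletion went from 1 to 0 (Tlr4 limma adjusted p = 0.056). The counts of members called were the same in the other 15 comparisons. The block gave libraries of a number the same shift in every group of a fit, so it does not test pairing by mouse.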

Other observations

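The Toll-like receptor genes outside the 10, Tlr3, Tlr11 and Tlr12, were near the detection limit. They passed the filter on low values in the fit of M-MDSC libraries and in 0 of 3 cases in the fit of PMN-MDSC libraries, and their summed level ranged from 0 to 70 normalized counts over the 24 libraries.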
